A study of Mus musculus with 10 samples.

Results

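The 8 genes described here encode receptors for stress hormones (Nr3c1, Nr3c2 and Crhr1), for the social peptides oxytocin and vasopressin (Oxtr and Avpr1a), for oestrogen (Esr1) and for thyroid hormone (Thra and Thrb). They were taken by gene symbol from the 30406 genes that all 10 count matrices share, and all 8 were found. The matrices hold single-cell RNA sequencing of medial prefrontal cortex, taken from C57BL/6N males over 2 months old. Mice had been ranked by the tube test, in which 2 mice meet in a narrow tube and the subordinate one retreats. The 5 rank 1 libraries come from the most dominant mice and the 5 rank 4 libraries from the most subordinate ones; each library pools tissue of 2 to 3 mice collected 1 day after the last test, and neither rank carried a transgene or drug that the labels name. Pools are the replicates, so every p-value below measures the spread between pools, not between single mice. All tissue was dissociated with papain at 37 °C for 60 min, a step that both ranks share.

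Nuclear receptors are transcription factors that sit in the cytoplasm or on DNA and change the transcription of target genes once a steroid or thyroid hormone binds them. Nr3c1 and Nr3c2 both bind corticosterone, Nr3c2 with the higher affinity, and the enzymes Hsd11b1 and Hsd11b2 regenerate or inactivate that hormone inside cells. Crhr1, Oxtr and Avpr1a are G protein-coupled receptors of the cell surface, whose ligands are peptides released by neurons. In the prefrontal cortex these receptors are known for their part in stress feedback, social recognition and emotional behaviour.

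The libraries counted UMIs (unique molecular identifiers, each standing for 1 captured RNA molecule), 4442750 to 29278466 in each, and held 64937 cell barcodes, of which 46288 passed the filters. The kept cells had a median of 1331 to 2663 UMIs per library. Clustering without the 8 genes gave 13 named classes and 9 named neuron subclasses, while 241 cells stayed without a class name. Each name means cells like that type by a list of markers. Subclasses of excitatory neurons were IT (intratelencephalic), PT (pyramidal tract), CT (corticothalamic) and NP (near-projecting) cells of the layers in their names, and subclasses of inhibitory neurons were named by Sst, Pvalb, Vip and Lamp5. Many neurons had no subclass name and lie outside the subclass levels below. Of 18161 excitatory neurons, 5110 were named L2/3 IT, 2405 L5 IT, 1064 L5 PT, 871 L5/6 NP and 4031 L6 CT. Of 2179 inhibitory neurons, 459 were named Sst, 446 Pvalb, 335 Vip and 276 Lamp5. Across the 45 pairs of libraries a median of 4 and at most 104 barcodes were shared, the most between the 2 libraries of replicate 1. Rank 4 replicate 1 stood apart in 1 respect that touches these receptors: it held 545 UMIs of Oxt and 372 of Avp, hypothalamic hormone genes, and 93 of Prl and 43 of Gh, pituitary hormone genes, against at most 5, 10, 0 and 0 in any of the other 9 libraries.

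All kept cells together held 69147 UMIs of Thra, 13624 of Nr3c1, 6751 of Thrb, 1895 of Nr3c2, 1309 of Crhr1, 616 of Esr1, 543 of Oxtr and 21 of Avpr1a. These totals also depend on transcript length and on how well each 3' end is captured, so levels are compared below between cell types for 1 gene at a time, in UMIs per 1000000 UMIs of the type (CPM, mean ± SD over libraries with at least 20 cells of the type). The 8 genes lie on the mouse build GRCm38 at 18:39410545-39519421 (Nr3c1, minus strand), 8:76899442-77245012 (Nr3c2, plus), 11:104132855-104175523 (Crhr1, plus), 6:112473683-112489943 (Oxtr, minus), 10:122448499-122453452 (Avpr1a, plus), 10:4611593-5005614 (Esr1, plus), 11:98740638-98769006 (Thra, plus) and 14:17660261-18038090 (Thrb, plus). Whether the counting used strand is not given in the sources used here; Thra overlaps Nr1d1 on the other strand, and their counts could be split only by strand.

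**Figure D1:**
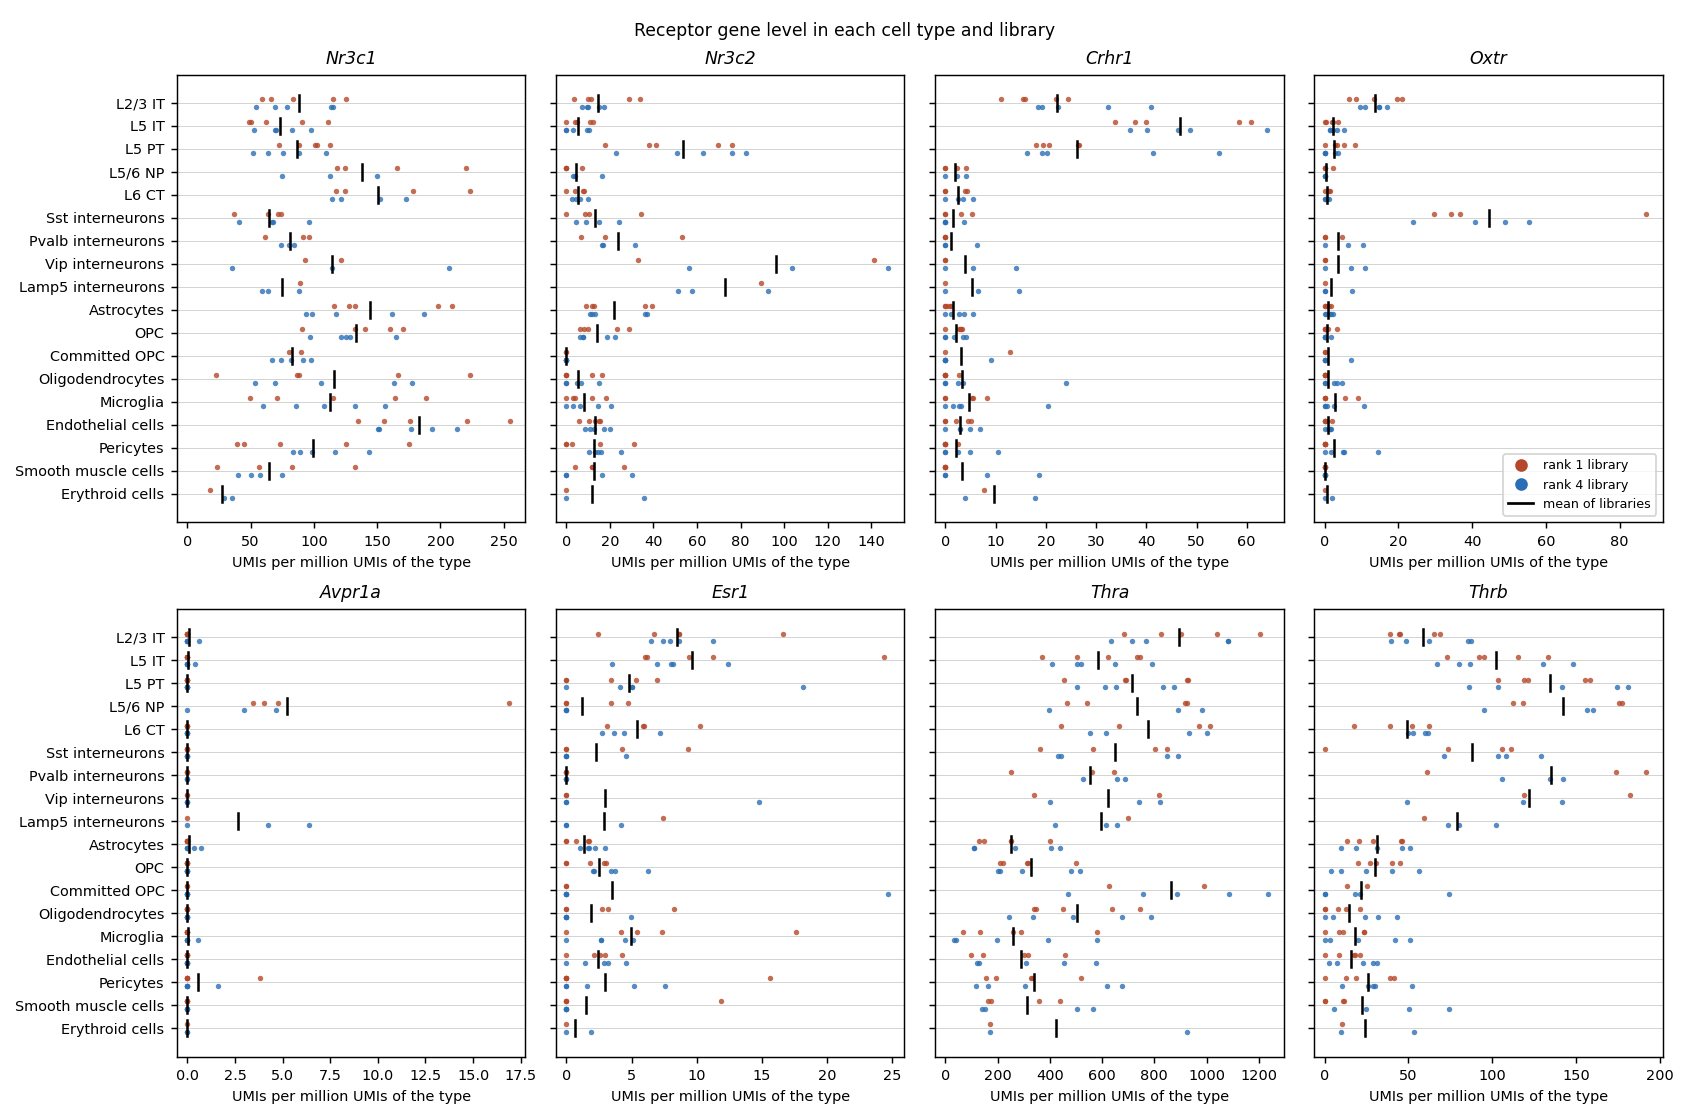
Level of each of the 8 receptor genes in 18 cell types, 1 panel per gene, in CPM, with neurons that have no subclass name left out. Points are libraries (rank 1 red, rank 4 blue) and bars their mean; each panel has its own axis, and the tallest bars are endothelial cells for Nr3c1, Vip interneurons for Nr3c2, L5 IT cells for Crhr1 and Esr1, Sst interneurons for Oxtr, L5/6 NP cells for Avpr1a and Thrb, and L2/3 IT cells for Thra.

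To ask in which cells each receptor was counted more, 8 pairs of cell types were tested within the same libraries, with the library as a block (edgeR's quasi-likelihood test, Benjamini-Hochberg adjustment over all genes tested in a pair, called at an adjusted p under 0.05). Of 42 tests of the 8 genes, 30 were called, 12 higher and 18 lower in the first type; over all genes and pairs 48.6% of tests were called, so a call alone sets no receptor apart and the sizes are what the tests add. Avpr1a passed the filter on low counts in no pair. Of the 30 calls, 23 held in the same direction under every alternative that was run. The others were 5 calls of Thra and Thrb described below, and Nr3c2 and Thrb in microglia against astrocytes, which were called in 16 of 17 and 16 of 19 alternatives (largest edgeR adjusted p 0.0679 and 0.153). Inhibitory against excitatory neurons gave 7 calls of 7 (background 47.2%) and astrocytes against excitatory neurons 7 of 7 (background 78.0%). Microglia against astrocytes gave 2 of 4 (59.7%), oligodendrocytes against their precursors 1 of 3 (46.9%), endothelial cells against pericytes 1 of 3 (41.0%), Sst against Pvalb interneurons 2 of 4 (19.9%), L5 PT against L2/3 IT cells 4 of 7 (39.8%) and L6 CT against L2/3 IT cells 6 of 7 (38.0%). Genes that passed the filter only because 1 type of a pair holds them had to differ, so these counts describe the genes tested and not all 8. Where the lower type of a pair would not have passed the filter between the ranks by itself, the direction was largely set by the filter. For Crhr1, Oxtr, Esr1, Nr3c2 and Thrb the sizes of such differences are given below as a description, with no p.

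**Figure D2:**
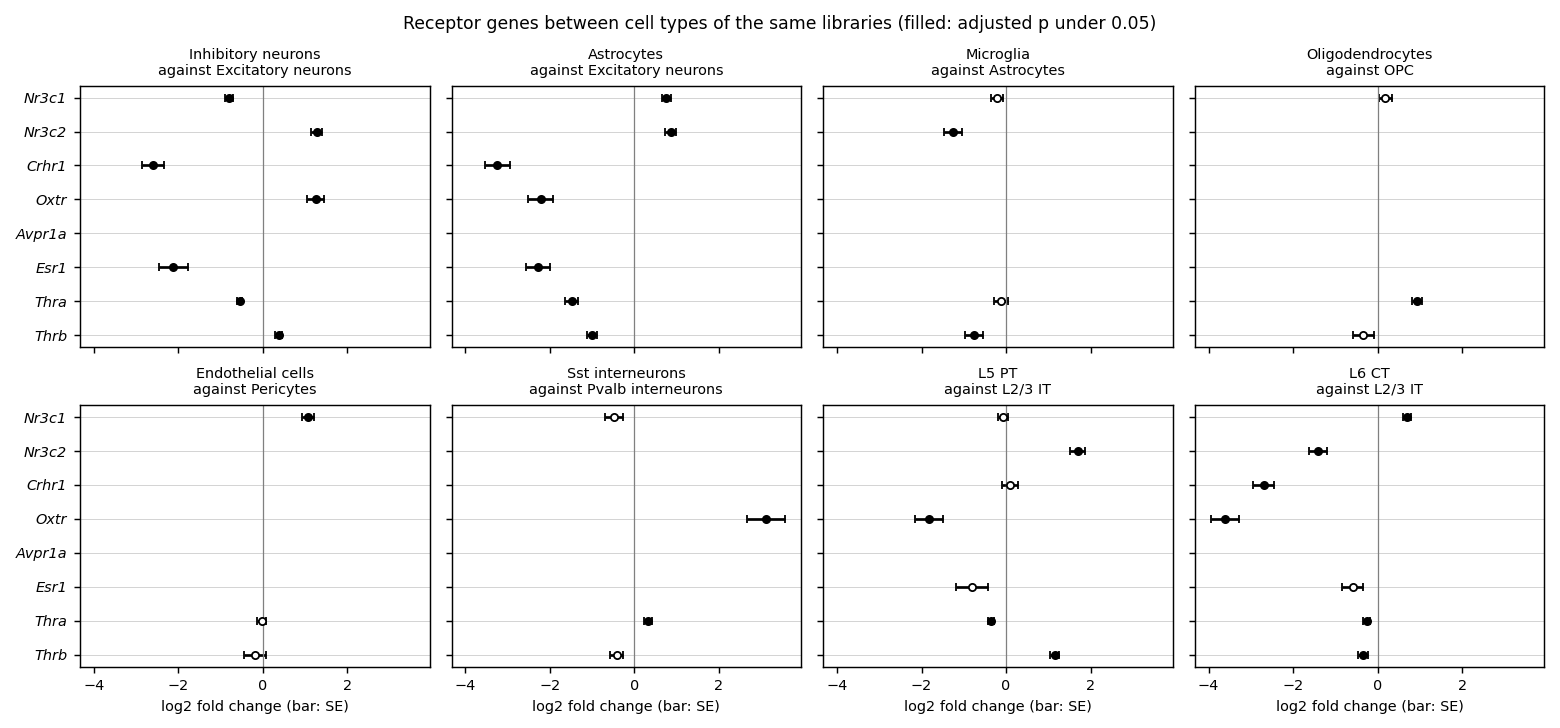
Log2 fold change (first over second type) of the receptor genes in the 8 pairs of cell types, with standard errors; filled points have an adjusted p under 0.05 in edgeR's quasi-likelihood test. Oxtr spans the widest range, from -3.62 in L6 CT against L2/3 IT cells to 3.11 in Sst against Pvalb interneurons.

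Nr3c1, the glucocorticoid receptor, was counted in every cell type measured, and its highest mean was in endothelial cells. Its level was 183 ± 37.8 CPM in endothelial cells, 144 ± 41.9 in astrocytes and 133 ± 26.9 in oligodendrocyte precursors (SD, n = 10 each), against 62.7 ± 18.5 in inhibitory neurons. In endothelial cells the rank 1 libraries, in order of replicate 1 to 5, stood at 156, 176, 135, 255 and 221 CPM and the rank 4 libraries at 152, 151, 177, 194 and 213 CPM. Replicates 4 and 5 were the highest of either rank, and the ranks overlapped. Among neurons L6 CT cells had the highest mean, 151 ± 38.7 CPM (n = 8), ahead of L5/6 NP cells at 138 ± 46.3 (n = 7), and L5 IT cells had 73.4 ± 21.3 (n = 10). In the order of levels, among classes, only the step from inhibitory neurons to erythroid cells, 27.3 ± 8.99 CPM (n = 3), exceeded the larger SD of the neighbours.

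Tested within the same libraries, Nr3c1 was higher in astrocytes than in excitatory neurons (log2 fold change 0.76, SE 0.11, edgeR adjusted p 1.56e-05, higher in 10 of 10 libraries) and higher in endothelial cells than in pericytes (1.07, SE 0.14, edgeR adjusted p 3.41e-08, 10 of 10). It was lower in inhibitory than in excitatory neurons (-0.80, SE 0.10, edgeR adjusted p 4.85e-08, higher in 1 of 10 libraries). L6 CT cells exceeded L2/3 IT cells by 0.69 (SE 0.09, edgeR adjusted p 9.4e-08, 8 of 8). Microglia against astrocytes (-0.22, SE 0.14), oligodendrocytes against precursors (0.17, SE 0.15) and L5 PT against L2/3 IT cells (-0.07, SE 0.11) did not pass, nor did Sst against Pvalb interneurons (-0.49, edgeR adjusted p 0.0902). For oligodendrocytes the fitted fold goes against the level, which was 116 ± 63.7 CPM against 133 in precursors and lower in 7 of 10 libraries. A UMI of Nr3c1 was present in 25.4% of endothelial cells at a median of 1268 UMIs per cell, and in 8.65% of erythroid cells, blood cells that should hold little of it, at a median of 2655.5 UMIs. With every cell thinned to 1000 UMIs the shares were 16.0% and 3.67%. The 5 erythroid markers summed to 171820 to 726569 CPM in erythroid cells. This left fewer UMIs for other genes, so the class is no clean floor.

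Nr3c2, the mineralocorticoid receptor, was concentrated in particular neurons rather than in vessels. It reached 96.5 ± 50.9 CPM in Vip interneurons (n = 5), 72.8 ± 21.2 in Lamp5 interneurons (n = 4) and 53.7 ± 23.2 in L5 PT cells (n = 10), while L6 CT, L5 IT and L5/6 NP cells had 5.40, 5.39 and 4.37 CPM. The order of the 3 highest depended on the software version in the file headers, whose libraries the types hold in unlike shares. In version 4.0.0 files Vip interneurons had 131 ± 24.0 CPM (n = 3), Lamp5 interneurons 79.8 ± 19.3 (n = 3) and L5 PT cells 64.8 ± 10.8 (n = 4). In version 3.1.0 files they had 44.7 ± 16.4 (n = 2), 51.5 (n = 1) and 46.4 ± 27.1 CPM (n = 6). In L5 PT cells the rank 1 libraries held 37.9, 17.6, 41.4, 69.4 and 76.2 CPM and the rank 4 libraries 22.7, 82.7, 75.9, 50.8 and 62.8 CPM. The lowest was rank 1 replicate 2 and the highest rank 4 replicate 2, and the ranks overlapped over nearly the whole range. Of the 8 steps between neighbouring subclasses, only that from L5 PT to Pvalb interneurons, 23.7 ± 16.4 CPM (n = 6), exceeded the larger SD. Committed oligodendrocyte precursors held 0 UMIs, which allows up to 5.49 CPM.

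Within the same libraries Nr3c2 was higher in L5 PT than in L2/3 IT cells (log2 fold change 1.69, SE 0.17, edgeR adjusted p 7.95e-12, 10 of 10 libraries) and higher in inhibitory than in excitatory neurons (1.27, SE 0.13, edgeR adjusted p 1.72e-09, 9 of 10). Astrocytes also exceeded excitatory neurons (0.85, SE 0.12, edgeR adjusted p 1.03e-05, 9 of 10). L6 CT cells had less than L2/3 IT cells (-1.42, SE 0.21, 0 of 8 libraries higher) and microglia less than astrocytes (-1.25, SE 0.22, 0 of 10), in both of which Nr3c2 passed the filter through the higher type. Nr3c1 and Nr3c2 were thus called in opposite directions between inhibitory and excitatory neurons, where both pass the filter in both types.

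The balance of the corticosterone receptors can be followed from type to type as Nr3c2 UMIs per 100 Nr3c1 UMIs, a ratio in which the capture of each gene cancels only between types. It was 95.6 ± 8.17 in Lamp5 interneurons (n = 4), 94.9 ± 46.9 in Vip interneurons (n = 5) and 66.3 ± 39.9 in L5 PT cells (n = 10). It was 13.4 ± 3.06 in excitatory neurons as a whole, 14.1 ± 5.30 in astrocytes and 3.43 ± 1.88 in L6 CT cells (n = 8). These values were not tested, and the gap between L5 PT and L6 CT cells is larger than either SD.

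By share of cells, a UMI of Nr3c2 was found in 59 of 276 Lamp5 interneurons (21.4%, exact 95% binomial interval 16.7 to 26.7%), in 221 of 1064 L5 PT cells (20.8%, 18.4 to 23.3%) and in 54 of 335 Vip interneurons (16.1%, 12.4 to 20.5%). All such intervals cover counting error only. In microglia, taken as a comparison, the share was 1.35%, at a median of 1286 UMIs per cell against 3589 in Lamp5 and 2117 in Vip interneurons. Thinned to 1000 UMIs, Vip interneurons led with 7.84%, L5 PT cells had 5.02%, Lamp5 interneurons 4.03% and microglia 0.77%. The highest share of any cluster with at least 50 cells was in 108 inhibitory cells that stayed without a subclass name and were led by Vip, Adarb2 and Tac2: 35.2% of them (26.2 to 45.0%) held a UMI of Nr3c2.

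Crhr1, the main receptor for corticotropin-releasing hormone, was a gene of excitatory neurons: they held 1146 of its 1309 UMIs. The level was 22.0 ± 4.90 CPM in excitatory neurons (n = 10), followed by 9.75 ± 7.24 in erythroid cells (n = 3) and 4.67 ± 6.18 in microglia. It was 2.48 ± 3.37 in inhibitory neurons and 1.52 ± 1.85 in astrocytes. Within excitatory neurons it stood at 46.7 ± 10.97 CPM in L5 IT cells, 26.3 ± 12.3 in L5 PT cells and 22.2 ± 8.77 in L2/3 IT cells (n = 10 each). L6 CT cells had 2.44 ± 2.18 CPM (n = 8) and L5/6 NP cells 1.84 ± 1.86 (n = 7). The steps from L5 IT to L5 PT cells and from L2/3 IT cells to the next subclass, Lamp5 interneurons, exceeded the larger SD.

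In L5 IT cells the rank 1 libraries held 60.9, 58.5, 33.8, 37.7 and 39.98 CPM of Crhr1 and the rank 4 libraries 64.1, 40.2, 48.8, 46.4 and 36.7 CPM. Both replicate 1 libraries were at the top of their rank and the ranks overlapped. Crhr1 was lower in inhibitory than in excitatory neurons (log2 fold change -2.60, SE 0.27), in astrocytes than in excitatory neurons (-3.24, SE 0.30) and in L6 CT than in L2/3 IT cells (-2.69, SE 0.25), with 0 libraries higher in each. It passed the filter in these pairs through the higher type. L5 PT and L2/3 IT cells did not differ past the threshold (0.09, SE 0.19, edgeR adjusted p 0.739). A UMI was found in 370 of 2405 L5 IT cells, 15.4% (14.0 to 16.9%) at a median of 3153 UMIs, against 0.70% of endothelial cells at a median of 1268 UMIs; thinned to 1000 UMIs these shares were 4.11% and 0.37%.

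Oxtr, the oxytocin receptor, was counted most in Sst interneurons, which had 44.6 ± 19.96 CPM (n = 8, 91 UMIs), and next in L2/3 IT cells, at 13.6 ± 4.73 CPM (n = 10). Pvalb interneurons had 3.64 ± 4.39 (n = 6), and L6 CT cells, although counted in 4031 cells, 0.68 ± 0.63 CPM (n = 8). In Sst interneurons the 4 rank 1 libraries with 20 cells, replicates 1, 2, 4 and 5, stood at 36.9, 29.7, 34.2 and 87.3 CPM, and the 4 rank 4 libraries, replicates 1, 3, 4 and 5, at 48.8, 24.0, 55.5 and 40.8 CPM. Rank 1 replicate 5 was the highest and rank 4 replicate 3 the lowest, and the ranks overlapped. The steps from Sst to L2/3 IT and from L2/3 IT to Pvalb exceeded the larger SD, as did those from inhibitory to excitatory neurons and from excitatory neurons to microglia.

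Between Sst and Pvalb interneurons the log2 fold change of Oxtr was 3.11 (SE 0.46, higher in 6 of 6 libraries). L2/3 IT cells exceeded L6 CT cells (L6 CT over L2/3 IT -3.62, SE 0.33) and L5 PT cells (-1.82, SE 0.34), with 0 libraries going the other way in either pair. Inhibitory neurons exceeded excitatory neurons (1.25, SE 0.20, edgeR adjusted p 8.42e-06, 9 of 10 libraries), and astrocytes had less than excitatory neurons (-2.22, SE 0.30, 0 of 10 higher). Of these pairs, Oxtr would have passed the filter in both types only for inhibitory against excitatory neurons.

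Cells with Oxtr were unevenly spread inside these types. A UMI was found in 76 of 459 Sst interneurons, 16.6% (13.3 to 20.3%) at a median of 3559 UMIs, against 0.18% of endothelial cells at a median of 1268 UMIs (3.94% and 0.20% when thinned to 1000 UMIs). Of the 4 Sst clusters, that led by Pdyn, Unc13c and Crhbp held 73 UMIs in 160 cells, with 33.8% of its cells positive (26.5 to 41.6%). A small cluster led by Npy, Nos1 and Chodl held 12 UMIs in 22 cells, 40.9% of them positive (20.7 to 63.7%). The other 2 Sst clusters, of 175 and 102 cells, had 4.0% and 5.9%. In L2/3 IT cells, likewise, a cluster led by Calb1 had Oxtr in 4.9% of its 1457 cells and one led by Otof in 1.0% of its 3382 cells. The clusters were formed from all other genes, and these shares are a description with no test between clusters.

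**Figure D3:**
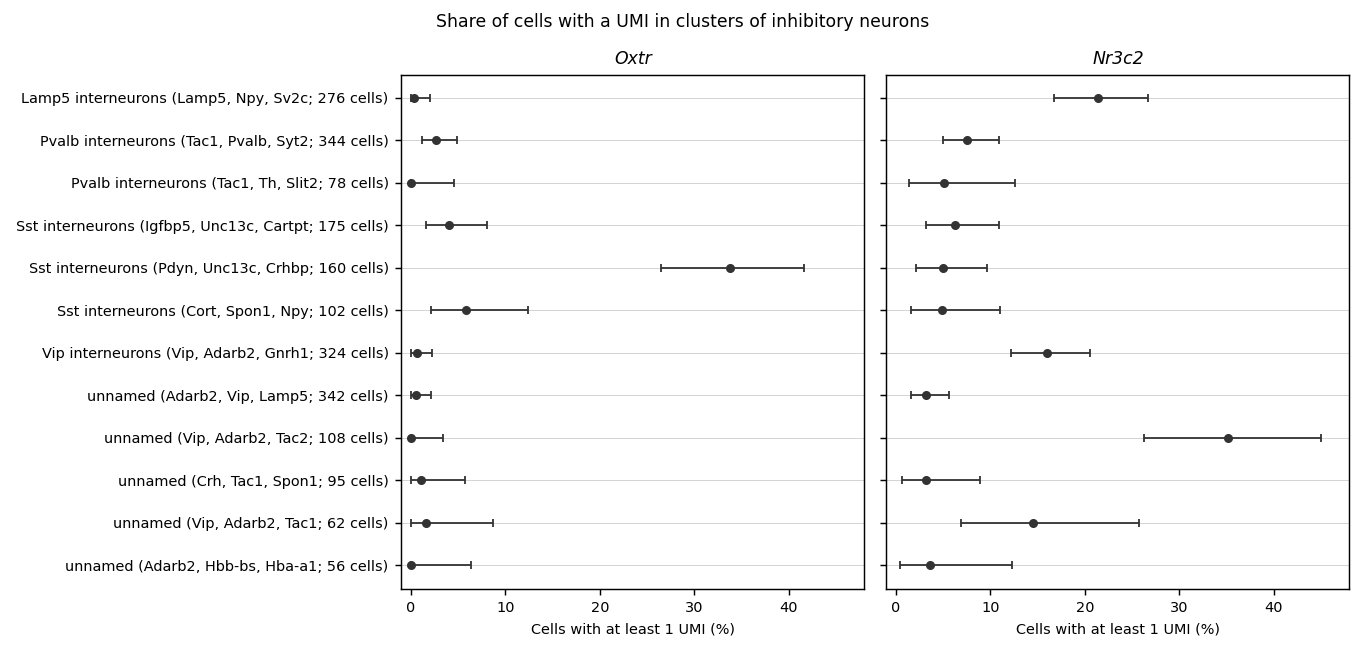
Percent of cells with at least 1 UMI of Oxtr or Nr3c2 in the 12 inhibitory clusters of at least 50 cells, with exact 95% binomial intervals that cover counting error only. The highest Oxtr share is 33.8%, in the Sst cluster led by Pdyn, and the highest Nr3c2 share 35.2%, in a cluster led by Vip and Adarb2 that has no subclass name.

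Avpr1a, the vasopressin receptor of brain and vessels, was close to the limit of detection, with 21 UMIs in 46288 cells. L5/6 NP cells had the highest mean level, 5.25 ± 5.38 CPM (n = 7), resting on 8 UMIs in those libraries. The mean was 3.304 without rank 1 replicate 2. In rank 1 replicates 1, 2, 4 and 5 the level was 4.01, 16.9, 3.44 and 4.74 CPM, and in rank 4 replicates 1, 4 and 5 it was 0, 2.96 and 4.67 CPM. The highest of these values is 1 UMI. A UMI was present in 11 of 871 L5/6 NP cells (1.26%), in 0.07% of excitatory neurons and in 0.02% of astrocytes. Of the 20 classes and subclasses listed, 11 had 0 UMIs, endothelial cells among them.

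Esr1, the oestrogen receptor alpha, was low, and its highest class mean was in excitatory neurons, ahead of microglia at 4.95 ± 5.03 CPM. Inhibitory neurons, at 1.23 ± 1.61 CPM, were followed only by erythroid cells. Of its 616 UMIs, 493 lay in excitatory neurons, at 9.20 ± 2.08 CPM (n = 10). The rank 1 libraries held 6.39, 10.2, 9.01, 11.8 and 8.22 CPM there and the rank 4 libraries 7.77, 12.4, 11.1, 8.13 and 6.99 CPM. The ranks overlapped and no library stood apart. Among named subclasses, L5 IT cells had 9.63 ± 5.79 CPM, L2/3 IT cells 8.48 ± 3.64 and L6 CT cells 5.38 ± 2.49. L5 PT cells had 4.81 ± 5.32 CPM and L5/6 NP cells 1.17 ± 2.03. None of the steps between neighbouring types exceeded the larger SD. Only L5 IT cells lay above the mean of all excitatory neurons, and the level in those without a subclass name is not given here. Esr1 was lower in inhibitory than in excitatory neurons (log2 fold change -2.12, SE 0.34) and in astrocytes than in excitatory neurons (-2.28, SE 0.28), with 0 of 10 libraries higher in each. It passed the filter in both pairs through excitatory neurons, the only type where it passed by itself. All 15 UMIs of Esr1 in inhibitory neurons lay in replicates 4 and 5 (2, 4, 3 and 6 UMIs), and the other 6 libraries had 0, so the size of the inhibitory fold rests on those 4 libraries. L5 PT (-0.81, SE 0.37) and L6 CT cells (-0.59, SE 0.25) against L2/3 IT cells did not pass (edgeR adjusted p 0.0774 and 0.0604). A UMI was found in 2.55% of excitatory neurons at a median of 2239 UMIs and in 0.57% of endothelial cells at a median of 1268 UMIs; thinned, the shares were 0.83% and 0.37%.

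Thra, the alpha thyroid hormone receptor gene, was highest in neurons and in committed oligodendrocyte precursors, the cells on the way to becoming oligodendrocytes. L2/3 IT cells had 894 ± 198 CPM (n = 10), committed precursors 864 ± 267 (n = 7) and L6 CT cells 774 ± 229 (n = 8). Oligodendrocytes stood at 504 ± 194, their early precursors at 326 ± 127, microglia at 257 ± 206 and astrocytes at 250.2 ± 128 CPM (n = 10 each). Among classes only the step from excitatory to inhibitory neurons exceeded the larger SD. Erythroid cells, taken again as the comparison, disagreed between libraries, with 170.3 CPM in rank 1 replicate 1, 169.6 in rank 4 replicate 1 and 927 in rank 4 replicate 5 (28 cells), so their mean of 422 CPM falls to 169.9 without the last, below precursors, microglia and astrocytes. The 7 excitatory markers summed to 231 CPM in erythroid cells of rank 1 and to 370 to 2103 CPM in those of rank 4. In excitatory neurons they summed to 1409 to 2584 CPM, so erythroid cells are no clean floor for Thra. A UMI of Thra was found in 44.2% of erythroid cells at a median of 2655.5 UMIs, in 69.6% of L2/3 IT cells at 1358, in 38.1% of astrocytes at 1508 and in 31.2% of microglia at 1286. Thinned to 1000 UMIs these shares were 20.7% (16.2 to 25.7%), 59.2% (57.5 to 60.8%), 24.7% (23.7 to 25.7%) and 19.1% (17.6 to 20.7%). The thinned share of microglia and astrocytes thus lay inside the interval of erythroid cells, which is pooled over those unlike libraries. Oligodendrocytes exceeded precursors (log2 fold change 0.94, SE 0.12, edgeR adjusted p 2.73e-08, 10 of 10 libraries), and Thra was lower in astrocytes (-1.49, SE 0.16, edgeR adjusted p 7.31e-07) and in inhibitory neurons (-0.55, SE 0.06, edgeR adjusted p 4e-08) than in excitatory neurons, with 0 of 10 libraries higher. L5 PT cells were below L2/3 IT cells (-0.36, SE 0.08, edgeR adjusted p 1.48e-04). Endothelial cells against pericytes (-0.03) and microglia against astrocytes (-0.13) did not pass. The latter fold goes against the means above, with microglia higher in 5 libraries and lower in 5.

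Thrb, the beta gene, followed another order, with L5/6 NP cells at 142 ± 33.0 CPM (n = 7), Pvalb interneurons at 135 ± 47.1 (n = 6), L5 PT cells at 134 ± 32.5 (n = 10) and Vip interneurons at 122 ± 48.2 (n = 5). These means rest on unlike shares of the file versions. In version 4.0.0 files L5/6 NP and L5 PT cells both had 167 CPM and Pvalb interneurons 161, and in version 3.1.0 files L5 PT cells had 112, L5/6 NP cells 109 and Pvalb interneurons 83.4 CPM. L2/3 IT and L6 CT cells, high in Thra, were the lowest neuron subclasses for Thrb at 58.5 ± 18.2 and 49.4 ± 14.98 CPM, and oligodendrocytes were lowest of all at 14.6 ± 14.97. In L5 PT cells the rank 1 libraries held 103, 119, 121, 158 and 155 CPM and the rank 4 libraries 86.3, 103, 142, 181 and 175 CPM. Replicates 4 and 5 were again the highest in each rank and the ranks overlapped. L5 PT cells exceeded L2/3 IT cells (log2 fold change 1.15, SE 0.11, edgeR adjusted p 4.1e-13, 10 of 10 libraries) and inhibitory exceeded excitatory neurons (0.37, SE 0.08, edgeR adjusted p 2.25e-04, 10 of 10). Astrocytes had less Thrb than excitatory neurons (-1.01, SE 0.13, edgeR adjusted p 3.66e-06, 0 of 10 libraries higher), and microglia less than astrocytes (-0.77, SE 0.22, 1 of 10), where Thrb passed the filter through astrocytes.

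The 2 thyroid hormone receptors therefore changed in opposite directions between inhibitory and excitatory neurons and between L5 PT and L2/3 IT cells. Expressed as Thrb UMIs per 100 Thra UMIs, the balance was 24.4 ± 4.94 in Pvalb interneurons (n = 6), 20.3 ± 3.11 in L5/6 NP cells (n = 7), 18.9 ± 2.38 in L5 PT and 17.5 ± 1.83 in L5 IT cells (n = 10 each). It was 6.58 ± 1.63 in L2/3 IT cells (n = 10), 6.71 ± 2.42 in L6 CT cells (n = 8) and 2.43 ± 2.14 in oligodendrocytes (n = 10). Weaker calls were Thrb (-0.35, SE 0.11, edgeR adjusted p 0.0102) and Thra (-0.26, SE 0.08, edgeR adjusted p 0.0119) in L6 CT against L2/3 IT cells, and Thra in Sst against Pvalb interneurons (0.31, SE 0.10, edgeR adjusted p 0.0158, 5 of 6 libraries). They held in 13 of 19, 12 of 19 and 12 of 18 alternatives: both L6 CT calls were lost without a filter, without the library block and without rank 1 replicate 4, rank 4 replicate 1 or rank 4 replicate 4. The Thrb call was lost also in replicates 1 to 3 alone, and the Thra call also in replicates 4 and 5 alone and without rank 1 replicate 5. The Sst call was lost by DESeq2, without the library block, at clustering resolution 2 and without rank 1 replicate 5 or rank 4 replicate 4 or 5. Single alternatives ended the Thra call in L5 PT cells (no library block, edgeR adjusted p 0.102) and the Thrb call in inhibitory neurons (replicates 1 to 3, edgeR adjusted p 0.052).

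The genes that supply or remove these hormones had their own places. Hsd11b1, which regenerates corticosterone, stood at 102 ± 34.1 CPM in astrocytes and 2.82 ± 2.70 in excitatory neurons (n = 10). Of the steroid metabolism list, 4 of 5 genes tested were higher and 1 lower in astrocytes than in excitatory neurons, with a median log2 fold change of 1.49 against 0.04 over all genes, of which 78.0% were called in that pair. Hsd11b2, which inactivates the hormone, had 8 UMIs in all libraries. Abcb1a, an efflux pump of the blood-brain barrier that carries corticosteroids, had 631 ± 84.3 CPM in endothelial cells and 7.45 ± 6.91 in pericytes.

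For thyroid hormone, the transporter Slco1c1 was highest in endothelial cells, at 1135 ± 243 CPM (n = 10). Dio2, the enzyme that makes the active hormone, was highest in astrocytes at 242 ± 109 CPM, and Dio3, which inactivates it, in L2/3 IT cells at 48.3 ± 29.4 CPM. Crym, a cytosolic thyroid hormone binding protein, was highest in L6 CT cells at 393 ± 104 CPM (n = 8). Of the thyroid hormone supply list, 2 genes were higher and 1 lower of 3 tested in endothelial cells against pericytes, with a median of 2.63 against 0.03 over all genes (41.0% of all genes called). Of the thyroid hormone responsive list, 4 of 5 genes were higher and 1 lower in astrocytes than in excitatory neurons, with a median of 0.45 against 0.04 (78.0% called). These pairs, and those of the lists below, are examples picked after the values of all 8 pairs were seen.

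Of the peptide ligands, Crh, the ligand of Crhr1, stood at 433 ± 159 CPM in Vip interneurons (n = 5) and 39.6 ± 27.6 in Sst interneurons (n = 8). Crhbp, which binds and sequesters it, was highest in Sst interneurons at 590.1 ± 408 CPM (n = 8). Both exceeded their level in Pvalb interneurons (Crhbp log2 fold change 1.37, SE 0.14, edgeR adjusted p 1.32e-11; Crh 2.02, SE 0.43, given with no p since it passed the filter through Sst interneurons), and these were the only 2 genes of the peptide list tested in that pair. Of the list of other hormone receptors, 4 of 6 genes tested were higher and 0 lower in L5 PT than in L2/3 IT cells, with a median of 0.53 against -0.05 over all genes (39.8% called). In the list of glucocorticoid responsive genes, 10 of 13 tested were higher and 0 lower in endothelial cells than in pericytes, with a median of 1.12 against 0.03 (41.0% of all genes called). Sgk1, counted here, passed the filter through endothelial cells, so its direction was largely set by the filter. Genes counted for the other lists and pairs can share this limit. In the other pairs the glucocorticoid responsive list had 3 higher and 6 lower of 13 in inhibitory neurons (47.2% of all genes called) and 9 and 5 of 15 in astrocytes (78.0%), each against excitatory neurons. Microglia against astrocytes gave 7 and 7 of 15 (59.7%) and oligodendrocytes against precursors 7 and 0 of 11 (46.9%). Sst against Pvalb interneurons gave 0 and 2 of 9 (19.9%). Against L2/3 IT cells it had 3 and 6 of 13 in L5 PT (39.8%) and 4 and 3 of 13 in L6 CT cells (38.0%). In endothelial cells against pericytes Sgk1, a kinase induced by corticosteroids, was higher by 3.01 (SE 0.22), having passed the filter through endothelial cells, and Tsc22d3, a glucocorticoid-induced leucine zipper gene that passes in both types, by 1.83 (SE 0.15, edgeR adjusted p 1.07e-12). Of the 13 receptor chaperones and coregulators, 6 were higher and 1 lower in L5 PT than in L2/3 IT cells, with a median of 0.25 against -0.05 (39.8% called).

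The pattern of each receptor was set against 15119 genes by Pearson's r of log2(CPM + 10) over 150 sums of library and type; the sums share libraries, depth and parent classes, so r is a description. Thra ran most closely with Atp9a (0.89), Map1a (0.88) and Kif3a (0.87), and Thrb with Gabrg3 (0.88), Ttc3 (0.87) and Rasgrf1 (0.87). Crhr1 was nearest to Rtn4r (0.81), Adamts18 (0.77) and Glt8d2 (0.76), and Oxtr to Pdyn (0.78), Fibcd1 (0.74) and Trpc6 (0.74). Nr3c1 came nearest to Pak2 (0.65), Hsd17b11 (0.62) and Tjp1 (0.61), Nr3c2 to Nt5dc3 (0.65), Adra1a (0.61) and Kcnn2 (0.61), and Esr1 to Mak (0.57), Arsj (0.57) and Gm29100 (0.54). For Avpr1a the nearest were Arid3c (0.70), Gm36543 (0.69) and Trh (0.69), which rests on its 21 UMIs.

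The study's main comparison is between the ranks, within each cell type. None of the 57 tests of the receptors in 9 classes and 7 subclasses was called (edgeR's quasi-likelihood test with the gene-list version of the files as a covariate, Benjamini-Hochberg adjustment over all genes of a type; 0.00561% of all tests were called). With DESeq2 none was called either and 0 of 57 had an unadjusted p under 0.05; with edgeR 1 did, against 3.28% of all tests. The ranks overlapped in all 57, a count for which no share over all genes is given here. The log2 fold changes, rank 1 over rank 4, ran from -0.49 to 0.60 with 34 above 0 and 23 below. On simulated counts of excitatory neurons the rank test recovered 12% of 1.5-fold and 88% of 2-fold changes, so small changes could go uncalled. Nr3c1 was tested in 15 types, Nr3c2 in 6, Crhr1 in 3, Oxtr in 4, Esr1 in 1, Thra in 16 and Thrb in 12, while Avpr1a passed the filter in none.

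**Figure D4:**
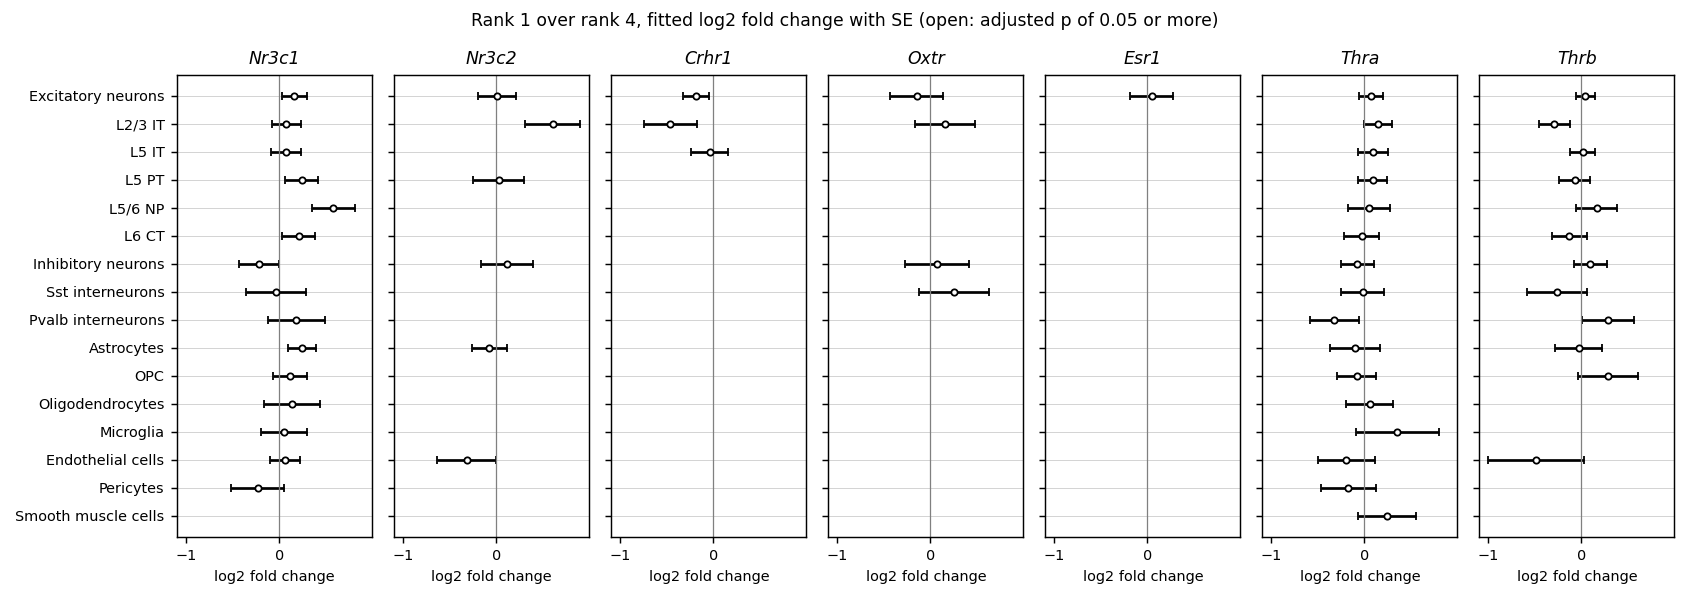
Log2 fold change of each receptor gene between the ranks (rank 1 over rank 4) with its standard error, in every cell type where it was tested. All points are open, since none had an adjusted p under 0.05 in edgeR's quasi-likelihood test, and values run from -0.49 to 0.60.

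The 1 test with an unadjusted p under 0.05 was Nr3c1 in L5/6 NP cells, where rank 1 had 157 ± 47.0 CPM (n = 4) and rank 4 112 ± 37.5 (n = 3). The rank 1 libraries of replicates 1, 2, 4 and 5 stood at 124, 118, 165 and 220.2 CPM and the rank 4 libraries of replicates 1, 4 and 5 at 74.5, 112 and 150 CPM. Rank 1 was higher in each of the 3 replicate numbers that both ranks have, and the ranks overlapped. The log2 fold change was 0.58 (SE 0.23, edgeR p 0.0174, adjusted p 0.853), and with the replicate number as a block the edgeR adjusted p was 0.373. In L5/6 NP cells 5.19% of all genes had an unadjusted p under 0.05.

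Nr3c1 in excitatory neurons stood, by replicate, at 95.6, 64.0, 74.9, 146 and 151 CPM in rank 1 and at 80.5, 63.0, 77.2, 133 and 121 CPM in rank 4. The ranks overlapped, and replicates 4 and 5 were above replicates 1 to 3 in both. Rank 1 was the higher in 4 of 5 replicate numbers there, in 5 of 5 in astrocytes and L5 PT cells and in 4 of 4 in L6 CT cells. It was the higher in 1 of 5 in pericytes and 2 of 5 in L5 IT cells. None of these tests was called. In astrocytes the log2 fold change was 0.24 (SE 0.15, edgeR p 0.137, and 0.0566 with the replicate number as a block). In excitatory neurons the log2 fold changes were 0.16 (SE 0.14) for Nr3c1, 0.01 (SE 0.20) for Nr3c2, -0.15 (SE 0.29) for Oxtr, 0.05 (SE 0.23) for Esr1, 0.08 (SE 0.13) for Thra and 0.04 (SE 0.10) for Thrb. Crhr1 in excitatory neurons was at 18.6, 24.2, 24.2, 18.8 and 16.0 CPM in rank 1 and at 29.4, 27.1, 26.6, 19.4 and 15.7 CPM in rank 4. Rank 4 was the higher in 4 of 5 replicate numbers, with a log2 fold change of -0.19 (SE 0.14), and the ranks overlapped.

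In inhibitory neurons the log2 fold changes were -0.22 (SE 0.21) for Nr3c1, 0.11 (SE 0.28) for Nr3c2, 0.07 (SE 0.34) for Oxtr, -0.08 (SE 0.18) for Thra and 0.10 (SE 0.18) for Thrb. In the type of its highest level, Nr3c1 had 0.06 (SE 0.17, endothelial cells), Crhr1 -0.04 (SE 0.20, L5 IT), Oxtr 0.25 (SE 0.37, Sst), Thra 0.15 (SE 0.15, L2/3 IT) and Thrb 0.16 (SE 0.22, L5/6 NP). Vip interneurons, the highest type for Nr3c2, had 2 rank 1 libraries with 20 cells and were not tested, since at least 3 per rank were required, and Esr1 and Avpr1a did not pass the filter in theirs. In inhibitory neurons Oxtr stood at 11.1, 14.1, 14.2, 11.1 and 26.0 CPM in rank 1 and at 17.2, 32.9, 7.04, 16.7 and 14.2 CPM in rank 4, so its extremes were rank 4 replicates 2 and 3.

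The files fall into 2 sets by the software version in their headers, replicates 1 to 3 (3.1.0) and replicates 4 and 5 (4.0.0) of both ranks. Looked at after the values were seen, 33 of the 57 tests were called higher and 1 lower in replicates 4 and 5 (edgeR; over all genes 36.3% of tests were called, 17.2% higher and 19.1% lower). Thra was called higher in 15 of 16 types, Nr3c1 in 7 of 15, Thrb in 7 of 12 and Nr3c2 in 4 of 6. In excitatory neurons the log2 fold changes were 0.64 for Thra, 0.82 for Nr3c1, 0.55 for Thrb and 1.04 for Nr3c2, while Crhr1 had -0.53. What else differed between the sets cannot be told apart from the version. Within the sets no receptor was called between the ranks: Nr3c1 had a fold change above 0 in 7 of 13 types in replicates 1 to 3 and in 15 of 15 in replicates 4 and 5, and Crhr1 was below 0 in 3 of 3 and in 1 of 5. Without rank 4 replicate 1, the library with the Oxt and Avp UMIs, no receptor was called either.

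**Figure D5:**
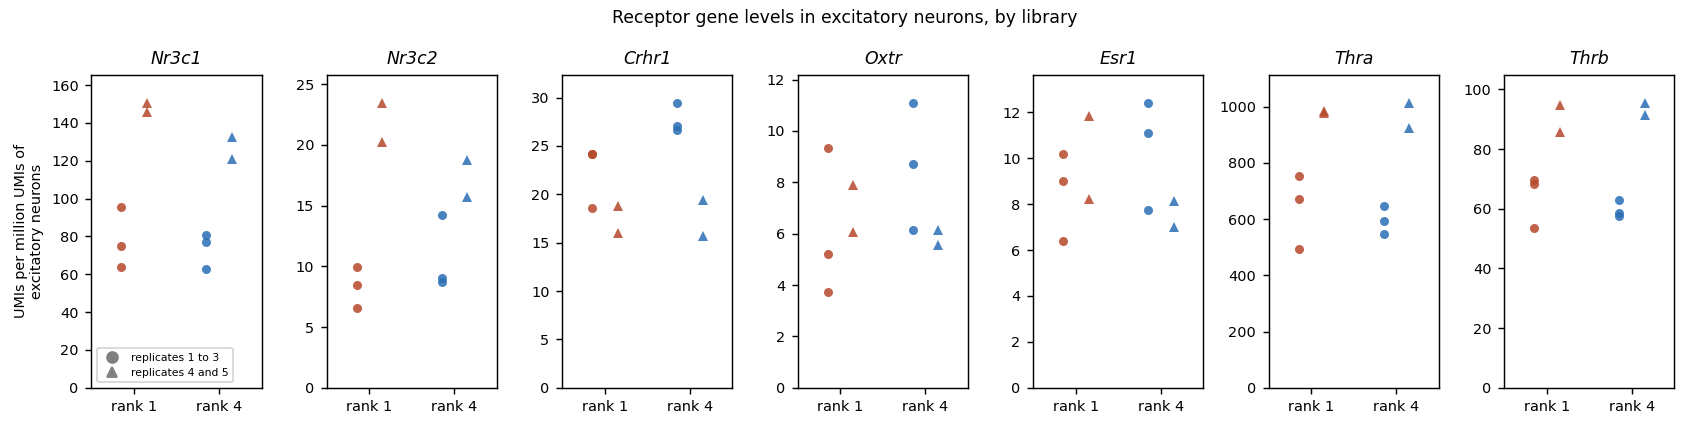
Level of the receptor genes in excitatory neurons of each library, in CPM, by rank; circles are replicates 1 to 3 and triangles replicates 4 and 5. The triangles of Nr3c1, Nr3c2, Thra and Thrb lie above all circles in both ranks, and the ranks overlap for every gene.

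Of the other genes of these pathways, 1 was called between the ranks: Mt2, a metallothionein gene of the glucocorticoid responsive list, in L5/6 NP cells (log2 fold change -1.97, SE 0.33, edgeR adjusted p 0.00603). It was 1 call of 181 tests of the list over 16 types, where 0.00561% of all tests were called, and 0.0296% of those in L5/6 NP cells. Mt2 was at 96.4, 33.8, 6.89 and 11.8 CPM in rank 1 replicates 1, 2, 4 and 5 and at 319, 26.6 and 42.1 CPM in rank 4 replicates 1, 4 and 5. The value of rank 4 replicate 1 was the highest by far, the ranks overlapped, and the call was lost without either library of replicate 1, by DESeq2, without the covariate and in replicates 4 and 5 alone (edgeR adjusted p 0.00391 to 1.0 over the left-out libraries). No call was made among 65 tests of other hormone receptors, 8 of peptide ligands, 37 of steroid metabolism, 38 of thyroid hormone supply, 69 of thyroid hormone responsive genes and 186 of chaperones and coregulators. An unadjusted p under 0.05 (edgeR) was found in 25 of the 181 tests of glucocorticoid responsive genes and in 9 of the 69 of thyroid hormone responsive genes, against 3.28% of all tests. These tests repeat the same genes in types that share cells, and the lists were chosen with earlier results of these data known. The list counts here, and those with the block below, are therefore a description.

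With the replicate number as a block, the glucocorticoid responsive list gave 11 calls of 177 tests, all lower in rank 1 and held by 4 genes in 8 types that partly contain each other (of all tests with the block 0.342% were called, 0.278% lower). Tsc22d3 was lower in rank 1 in astrocytes (log2 fold change -0.62, SE 0.13, edgeR adjusted p 0.00355) and in endothelial cells (-0.49, SE 0.12, edgeR adjusted p 0.0218). In endothelial cells it stood at 258, 906, 935, 170.2 and 166 CPM in rank 1 and at 364, 1243, 1248, 222 and 249 CPM in rank 4. Rank 4 was higher in 5 of 5 replicate numbers, while the numbers themselves differed more than the ranks. Mt1 was lower in inhibitory neurons (-1.03, edgeR adjusted p 0.00154), in L5 PT (-1.10, edgeR adjusted p 0.00126), L6 CT (-0.995, edgeR adjusted p 4.25e-05), L2/3 IT (-0.83, edgeR adjusted p 0.0169) and L5/6 NP cells (-1.09, edgeR adjusted p 0.00424). Without the block the same fold of Mt1 in inhibitory neurons, -1.03, had an SE of 0.39 and an edgeR adjusted p of 1.0. Mt2 was lower, with the block, in L2/3 IT, L5/6 NP and L6 CT cells, and Cdkn1a, a cell cycle inhibitor gene, in excitatory neurons (-0.75, SE 0.13, edgeR adjusted p 0.0369). None of the receptors was called with the block. Of the 54 receptor tests above that the block could also fit, 3 had an unadjusted p under 0.05, and 9.11% of all tests with the block did. They were Nr3c1 in L5/6 NP cells (log2 fold change 0.59, edgeR p 0.00633), Nr3c2 in L2/3 IT cells (0.69, edgeR p 0.0197) and Thrb in endothelial cells (-0.58, edgeR p 0.0425). Over all 57 receptor tests with the block there were 4, the other being Thrb in microglia (-0.96), which did not pass the filter in the fit without the block.

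The thyroid hormone responsive list gave 8 calls of 67 with the block, all lower in rank 1: 7 were Nrgn, neurogranin, a calmodulin-binding protein gene of excitatory neurons, and 1 was Dbp, a clock output gene, in endothelial cells (-0.85, edgeR adjusted p 0.0462). Nrgn was called in the excitatory subclasses L2/3 IT (log2 fold change -0.58, edgeR adjusted p 0.0190) and L6 CT (-0.72, edgeR adjusted p 0.0114). The other calls were in astrocytes (-0.83), endothelial cells (-0.90), inhibitory neurons (-1.16), Sst interneurons (-1.63) and oligodendrocyte precursors (-0.83). Without the pair of replicate 1, the glucocorticoid responsive list gave 3 calls of 157 tests with the block, all of Mt1 (inhibitory neurons, L5 PT and L6 CT), and the thyroid hormone responsive list 4 of 57, all of Nrgn (0.158% of all tests called, 0.119% lower). L5/6 NP cells and Sst interneurons then had fewer than the 3 pairs required, so the calls of Mt1 and Mt2 in the former and of Nrgn in the latter were not refitted. With fewer pairs the fold changes of several refitted genes no longer called kept their sign and much of their size. Tsc22d3 had -0.50 in astrocytes (edgeR adjusted p 0.116) and -0.48 in endothelial cells (edgeR adjusted p 0.108). Cdkn1a had -0.72 in excitatory neurons (edgeR adjusted p 0.0768) and Mt2 -0.92 in L6 CT cells (edgeR adjusted p 0.171). Dbp in endothelial cells had -0.42 (edgeR adjusted p 0.674).

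Mt1 is most abundant in astrocytes, at 5269 ± 2005 CPM, and Nrgn in excitatory neurons, at 889 ± 441 CPM (n = 10). The markers of those cells were therefore summed in the types above that are of another class. The 7 astrocyte markers summed to 230.2 to 623 CPM in inhibitory neurons of rank 1 and to 346 to 991 in those of rank 4, with at most 2 of 7 at 0 in a library of either rank. In L5 PT cells the sums were 159 to 486 and 124 to 699 CPM (at most 3 and 4 of 7 at 0), and in L6 CT cells 816 to 2084 and 1190.3 to 2179 CPM (at most 3 and 1). In L5/6 NP cells they were 1112 to 2152 and 1718 to 2139 CPM (at most 2 and 1), and in L2/3 IT cells 238 to 833 and 261 to 931 CPM (at most 1 each). The 7 excitatory markers summed to 133 to 559 CPM in astrocytes of rank 1 and 137 to 642 in those of rank 4 (at most 1 of 7 at 0 in each), and in inhibitory neurons to 81.1 to 369 and 41.2 to 585 CPM (at most 2 each). The sums were 26.3 to 569.6 and 68.1 to 863 CPM in endothelial cells (at most 2 and 0), 126 to 632 and 133 to 768 CPM in oligodendrocyte precursors (at most 3 and 2) and 29.7 to 324 and 132 to 508 CPM in Sst interneurons (at most 5 and 3). The part of these markers' cells in the Mt1 and Nrgn results was not tested.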

How the data were processed

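The authors deposited filtered 10x Genomics matrices of raw UMI counts per gene and cell; per the submitters' processing notes they were made with Cell Ranger 4.0.0 on mm10, while the file headers name 3.1.0 (replicates 1 to 3, 31053 genes) and 4.0.0 (replicates 4 and 5, 32285 genes). The receptors and gene lists were chosen with earlier results of these data known. Cells with at least 500 genes and at most 15% mitochondrial UMIs were kept, 3419 doublets called by simulated neighbours (expected share 6%; the threshold was replaced in 2 libraries) were removed, and the rest clustered (2000 variable genes, 30 components, 15 neighbours, Leiden resolution 1; Python 3.11.15, igraph 0.11.9) without the 8 receptors, which were also in no marker list.

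UMI counts were summed per library and type (at least 20 cells) and tested with edgeR 4.0.16 in R 4.3.3 (TMM, filterByExpr, glmQLFit); DESeq2 1.42.0, other size factors, no filter, no covariate, each version alone, each library left out, stricter cells (1000 genes, 10%), 50 cells and resolution 2 were alternatives. All 8 receptors are described; rank fold changes are given in excitatory neurons, inhibitory neurons, the highest type and where p was under 0.05; list genes are named where called or as examples chosen after their values were seen. Tests were checked on simulated data with known changes in the better counted genes. Between the ranks in excitatory neurons 12% of 1.5-fold and 88% of 2-fold changes were recovered. For inhibitory against excitatory neurons these shares were 62% and 94%. The labels give both ranks replicate numbers 1 to 5 but state no pairing. Same-numbered excitatory sums deviated together from their rank means (r 0.67 to 0.87 over 12577 genes, and 0.152 to 0.76 after the version means were also removed). The numbers were therefore taken to pair the libraries in the fits with the replicate block, while the main rank tests hold no such block. In 4 of 5 numbers the rank 1 library correlated best with the rank 4 library of its own number, and that of replicate 3 with replicate 2. Coordinates are from GENCODE's GRCm38 annotation.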

Additional observations from a re-analysis of the deposited data

Results flagged for a closer look

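In 9 of 50 groups of 4 or 5 libraries looked at, 1 library lay far from the others by Dixon's criterion, which chance meets in about 1 group in 20. Oxtr was at 26.0 CPM (29 UMIs) in inhibitory neurons of rank 1 replicate 5, with the next library at 14.2 CPM, and at 87.3 CPM (28 UMIs) in its Sst interneurons, with the next at 36.9 CPM. Esr1 in L5 IT cells of rank 1 replicate 1 was at 24.3 CPM, which is 4 UMIs. For Avpr1a each such value rests on 1 or 2 UMIs: 0.89 CPM in excitatory neurons of rank 4 replicate 3, 16.9 CPM in L5/6 NP cells of rank 1 replicate 2, and 3.80 and 1.62 CPM in pericytes of rank 1 replicate 5 and rank 4 replicate 1. In all kept cells of rank 4 replicate 1, Oxt reached 34.1 CPM and Avp 23.3 CPM, with the next rank 4 library at 0.68 and 1.00 CPM.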

How the results depend on the processing

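No alternative called a receptor between the ranks: 1294 fits over 20 alternatives gave 0 calls, with a smallest edgeR or DESeq2 adjusted p of 0.345. Calls over all genes did move. In the classes the main count was 0, with 35 without a filter, 303 with the replicate block (82 with the block and replicates 2 to 5 only, added after seeing the data), 7 in replicates 4 and 5, 5 with stricter cells and 0 to 2 without 1 library. In the subclasses it was 7, with 0 by DESeq2, without the covariate or in replicates 1 to 3, 74 without a filter, 127 with the replicate block (87 for replicates 2 to 5), 3 in replicates 4 and 5, 1 with stricter cells, 2 at resolution 2 and 2 to 11 without 1 library. In the pairs of types, all-gene calls were 40645, 21664 without the replicate block (the library) and 37459 to 39921 without 1 library; receptor calls were 30, and 26 to 32 without 1 library. The type with the highest share of cells stayed for 4 of the 8 receptors when thinned. The type of highest level stayed for 6 to 8 of the 8 without 1 library: Esr1 was highest in L2/3 IT and Thrb in Pvalb cells without rank 1 replicate 1 or with stricter cells (Thrb also at resolution 2), and Thra in committed precursors without rank 1 replicate 4 or rank 4 replicate 3. Among the rank log2 fold changes named for excitatory and inhibitory neurons and for the type of highest level, those that turned sign were uncalled: in replicates 4 and 5, Crhr1 0.0024, Oxtr 0.26 and Thrb -0.0291 in excitatory and Nr3c1 0.0183 in inhibitory neurons; in replicates 1 to 3, Esr1 -0.30 and Nr3c2 -0.38 in excitatory neurons and Nr3c1 -0.12 in endothelial cells; for Crhr1 in L5 IT cells, 0.0029 with the replicate block and 0.12 with stricter cells; for Esr1 in excitatory neurons, -0.0104 without the covariate and -0.0303 at resolution 2; for Nr3c2 there, -0.0013 with RLE factors, -0.0167 without a filter and -0.0455 with stricter cells. Without 1 library the ranges crossing 0 were -0.14 to 0.0731 (Crhr1, L5 IT), -0.14 to 0.18 (Esr1, excitatory), -0.0253 to 0.16 (Nr3c1, endothelial), -0.12 to 0.14 (Nr3c2, excitatory), -0.0370 to 0.23 (Nr3c2, inhibitory), -0.31 to 0.0448 (Oxtr, excitatory), -0.40 to 0.25 (Oxtr, inhibitory), -0.33 to 0.53 (Oxtr, Sst), -0.0180 to 0.13 (Thra, excitatory) and -0.0187 to 0.0842 (Thrb, excitatory). Between types, uncalled folds that turned were Thra in microglia against astrocytes (0.0483 without the replicate block, 0.19 in replicates 4 and 5), Nr3c1 in oligodendrocytes against precursors (-0.0008 with RLE factors, -0.0304 by DESeq2, -0.27 in replicates 1 to 3, -0.23 with stricter cells), Crhr1 in L5 PT against L2/3 IT (-0.10 in replicates 4 and 5 and at resolution 2, -0.0672 with 50 cells) and Nr3c1 there (0.18 in replicates 1 to 3). The replicate number as a block gave no receptor call between the ranks. Receptor calls between types that were lost without the library block included Thra and Thrb in L6 CT and Thra in L5 PT, each against L2/3 IT. Thra in Sst against Pvalb interneurons was lost as well. Some uncalled folds between types were called, with the same sign, in a few alternatives. For Nr3c1 these were 1 of 19 in oligodendrocytes against precursors (folds up to 0.46) and 1 of 19 in microglia against astrocytes. For Thrb they were 4 of 18 in Sst against Pvalb and 1 of 17 in oligodendrocytes. For Esr1 they were 1 of 13 in L5 PT and 1 of 16 in L6 CT, each against L2/3 IT. The cause of these shifts was not tested. Depth limits Avpr1a, Esr1 and Oxtr most, with 21, 616 and 543 UMIs in all.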

Other observations

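Some genes of these pathways had a clear place among cell types that the comparisons above do not cover. Crhr2, the second receptor for the corticotropin-releasing hormone family, was highest in Sst interneurons at 17.5 ± 9.40 CPM (n = 8, 30 UMIs) with a log2 fold change of 3.08 (SE 0.49) in inhibitory over excitatory neurons, a pair in which it passed the filter on low counts through inhibitory neurons. Fkbp5, a co-chaperone that lowers glucocorticoid receptor sensitivity, was highest in microglia at 44.9 ± 22.1 CPM (n = 10) and at 3.08 ± 3.49 in astrocytes, where it would not have passed that filter. Sgk1 was highest in oligodendrocytes at 590.1 ± 252 CPM, above their precursors at 119 ± 25.6 (2.53, SE 0.15, edgeR adjusted p 1.43e-15). Nr1d1, which overlaps Thra on the other strand, was highest in astrocytes at 120.1 ± 17.8 CPM, and Esrrg, an orphan receptor related to the oestrogen receptors, in Pvalb interneurons at 62.9 ± 30.3 CPM (n = 6). Esr2, the second oestrogen receptor gene, had 22 UMIs in all libraries, Avpr1b 4 and Avpr2 6.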
